A study of Mus musculus with 6 samples.

Results

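Enzymes of the route from acetyl-CoA through mevalonate and isoprenoids to squalene and its epoxide were read on 6 arrays of sorted mouse bone marrow cells. The 8 genes were Hmgcs1, Mvk, Pmvk, Mvd, Idi1, Fdps, Fdft1 and Sqle. A probe set was taken where the platform annotation gave it 1 of these symbols and no other. The rule found 10 probe sets among the 35557 of the array table, 1 for each gene except Idi1 and Fdft1, which had 2 each. The family was chosen by the scores of Mvd and Idi1, which had differed in opposite directions between leukaemia stem cells without and with Alox5. The difference between those groups is therefore described without a test for every member.

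The samples formed 3 groups of 2 arrays. All came from C57BL/6 (B6) material labelled as aged 8 weeks. Donor marrow, from mice given 5-fluorouracil, was transduced with a retrovirus and transplanted into B6 recipients, and GFP+Lin-c-Kit+Sca-1+ cells were sorted 14 days later. Alox5-/- LSC (leukaemia stem cells) derived from Alox5-/- donors and carried BCR-ABL/GFP, LSC derived from wild-type donors and carried BCR-ABL/GFP, and HSC (haematopoietic stem cells) derived from wild-type donors and carried the vector, so that no BCR-ABL was expressed. BCR-ABL, a constitutively active tyrosine kinase, drives chronic myeloid leukaemia, and Alox5 encodes arachidonate 5-lipoxygenase. The recipients kept their own Alox5, BCR-ABL came from a retrovirus rather than its own locus, and vector cells from Alox5-/- donors were not analysed here. In sorted bulk cells, fewer cells of a type and less RNA per cell cannot be told apart. The titles call the arrays biological replicates, and the sources used here do not say how many animals each held. The p-values therefore set a difference only against the spread between these samples, estimated with help from all probe sets.

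The mevalonate pathway builds 5-carbon isoprenoid units from acetyl-CoA. These units are joined into farnesyl diphosphate, which is either drawn off for protein prenylation, dolichol and ubiquinone or condensed to squalene, the first committed intermediate of cholesterol. Most enzymes of the route are transcriptional targets of SREBP-2, which is released for transport to the nucleus when membrane sterols are low. Ras proteins, through which BCR-ABL signals, need a prenyl anchor made from these products.

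The unit of the deposited scores is not stated, and their relation to RNA amount had to be read from the values. Array medians ran from 14.5 to 16.4, with the lowest on Alox5-/- LSC replicate 2 and the highest on HSC replicate 2. On every array the 175 probe sets of cytosolic ribosomal protein genes, which every cell transcribes, had a lower median score than the 1022 probe sets of olfactory receptor genes, which serve the nose. The ribosomal medians ran from 10.7 to 12.3 and the olfactory medians from 15.3 to 17.0 over the 6 arrays. Actb, the cytoskeletal beta-actin, scored 5.31 to 9.97. A higher score therefore cannot be read as more RNA, and all comparisons here are differences of score.

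**Figure D1:**
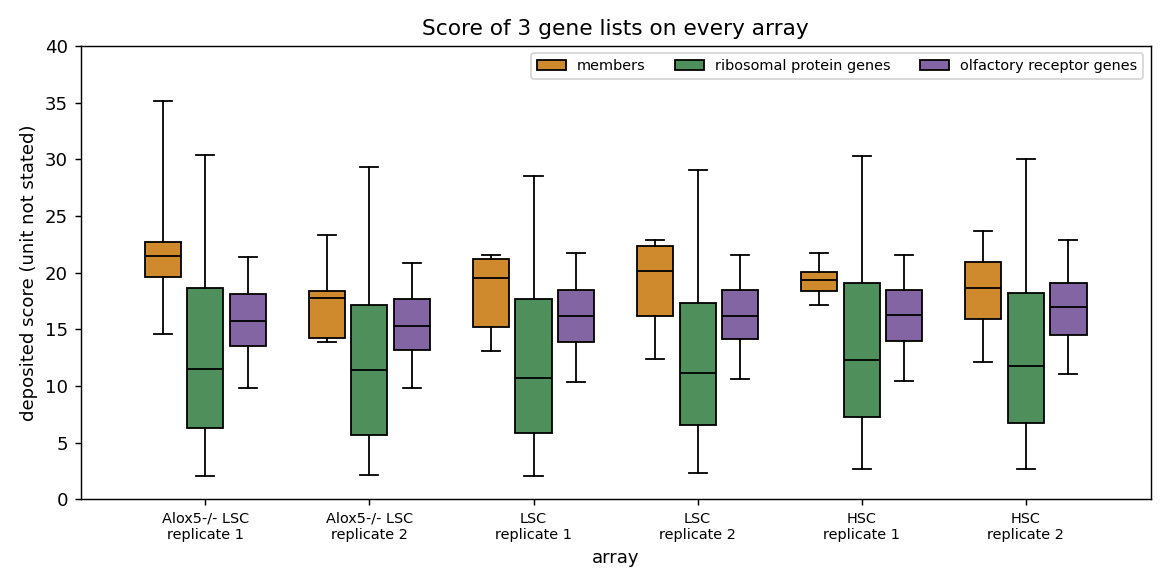
Deposited score (vertical axis, unit not stated) of 3 gene lists on each of the 6 arrays (horizontal axis). Boxes span the quartiles with the median as a line, and whiskers reach the 5th and 95th percentiles over probe sets. The ribosomal medians (10.7 to 12.3) lie below the olfactory medians (15.3 to 17.0) on every array, and the 10 mevalonate probe sets have medians of 17.8 to 21.5.

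The identity of the cells and the genotype could not be checked from such scores. Kit, a gene of the sorting gate, scored 10.5 to 15.4 and the leukocyte gene Ptprc 9.05 to 12.0, against 17.2 to 18.6 for the hepatocyte gene Alb. Stem and progenitor markers had list medians of 12.5 to 16.1 (6 of 8 genes measured), granulocyte and monocyte markers 10.5 to 14.8 (7 of 7), B cell markers 13.2 to 16.2 (4 of 5), T cell markers 13.5 to 16.6 (4 of 5), erythroid markers 14.6 to 17.5 (2 of 5) and hepatocyte markers 17.1 to 18.4 (5 of 6). No marker stood at 0 on any array, and the part of other cell types in the results was not tested. Alox5 itself scored 14.4 and 13.5 in Alox5-/- LSC, 13.2 and 14.2 in LSC, and 12.6 and 19.9 in HSC.

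Mvd, diphosphomevalonate decarboxylase, makes isopentenyl diphosphate, and Idi1, the isomerase, interconverts it with its allylic partner in the next step. Mvd scored 14.3 and 13.6 in Alox5-/- LSC, 21.4 and 22.7 in LSC, and 19.8 and 16.2 in HSC. The Alox5-/- LSC arrays were the lowest pair and the LSC arrays the highest, and no 2 of the 3 groups overlapped. Alox5-/- LSC minus LSC was -8.07 ± 1.53 (SE), and 0.762% of all probe sets differed by more in either direction. Mvd was picked by this comparison, so that share is a description and not a test. Against vector cells, LSC minus HSC was 4.07 and Alox5-/- LSC minus HSC was -3.99 (SE 1.53 each), with means of 14.0 ± 0.46 in Alox5-/- LSC, 22.04 ± 0.98 in LSC and 18.0 ± 2.53 in HSC (SD, n = 2 each). Leaving out 1 array took the first from 2.29 to 5.86 and the second from -5.78 to -2.20, with the ends set by the HSC arrays. Those differences reuse the arrays that picked Mvd and were not tested.

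Idi1 was measured by 2 probe sets that gave different pictures. Probe set 10403413 scored 44.8 and 27.2 in Alox5-/- LSC, 21.2 and 22.4 in LSC, and 21.97 and 22.7 in HSC. Both Alox5-/- LSC arrays lay above all other arrays, replicate 1 by far the more, while LSC and HSC overlapped. Alox5-/- LSC minus LSC was 14.2 ± 5.27 (SE). It was 5.42 without Alox5-/- LSC replicate 1 and 23.1 without Alox5-/- LSC replicate 2. The gap of 17.6 between the Alox5-/- LSC replicates was exceeded by only 31 of 34499 probe sets. Alox5-/- LSC minus HSC was 13.7, and 4.88 without Alox5-/- LSC replicate 1, whereas LSC minus HSC was -0.54 (SE 5.27 each).

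Probe set 10482762, annotated with the same 4 accessions, did not separate the groups. It scored 23.4 and 18.5 in Alox5-/- LSC, 21.0 and 22.3 in LSC, and 19.5 and 24.5 in HSC. All 3 groups overlapped, and Alox5-/- LSC minus LSC was -0.73 ± 2.32 (SE). The 2 probe sets differed by 21.5 and 8.69 in Alox5-/- LSC, against 0.175 and 0.0572 in LSC and 2.47 and -1.83 in HSC. The higher Idi1 score in Alox5-/- LSC was thus seen on 1 of its 2 probe sets.

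The upstream sequences of both genes are shown because their scores parted most, with that of Hmgcs1, the earliest enzyme among the 8, for comparison. They are the 250 bases before the annotated start in RefSeq, build GRCm38.p6, read 5′ to 3′ on the gene's strand. Capitals mark CCAAT on either strand (ATTGG on the other), the core bound by NF-Y, a partner of SREBP factors, and TCACNCCAC on either strand, a sterol regulatory element. The windows are chr8:122443423-122443672 (minus strand) for Mvd, chr13:8885356-8885605 (plus strand) for Idi1 and chr13:119690101-119690350 (plus strand) for Hmgcs1.
Mvd: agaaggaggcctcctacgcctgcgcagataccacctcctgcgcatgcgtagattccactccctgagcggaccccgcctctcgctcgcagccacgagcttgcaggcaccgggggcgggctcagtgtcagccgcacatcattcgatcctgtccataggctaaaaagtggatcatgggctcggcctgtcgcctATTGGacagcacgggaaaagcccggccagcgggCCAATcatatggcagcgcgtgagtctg
Idi1: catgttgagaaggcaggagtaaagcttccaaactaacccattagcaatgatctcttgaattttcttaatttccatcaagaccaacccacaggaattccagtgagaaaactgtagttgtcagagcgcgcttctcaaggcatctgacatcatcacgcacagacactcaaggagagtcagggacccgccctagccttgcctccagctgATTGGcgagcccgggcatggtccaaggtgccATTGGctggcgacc
Hmgcs1: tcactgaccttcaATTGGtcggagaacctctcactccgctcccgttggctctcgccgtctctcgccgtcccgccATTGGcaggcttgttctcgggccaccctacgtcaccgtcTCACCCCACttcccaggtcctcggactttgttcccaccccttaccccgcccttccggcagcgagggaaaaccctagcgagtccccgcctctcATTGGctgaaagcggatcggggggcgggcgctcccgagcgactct
Mvd and Idi1 each held 2 CCAAT cores, which 10.1% of the 32851 windows in the table matched or exceeded, and no sterol element of that spelling. Hmgcs1 held 3 CCAAT cores and 1 sterol element, a spelling found in 1.05% of all windows. Mvk held 5 CCAAT cores, and Pmvk held 1 in 1 of its 2 windows. At least 1 core was present in 33.9% of all windows. In the table, 5 of the 8 genes had a window. The letters are a description of these windows, and no link to any score was tested.

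**Figure D2:**
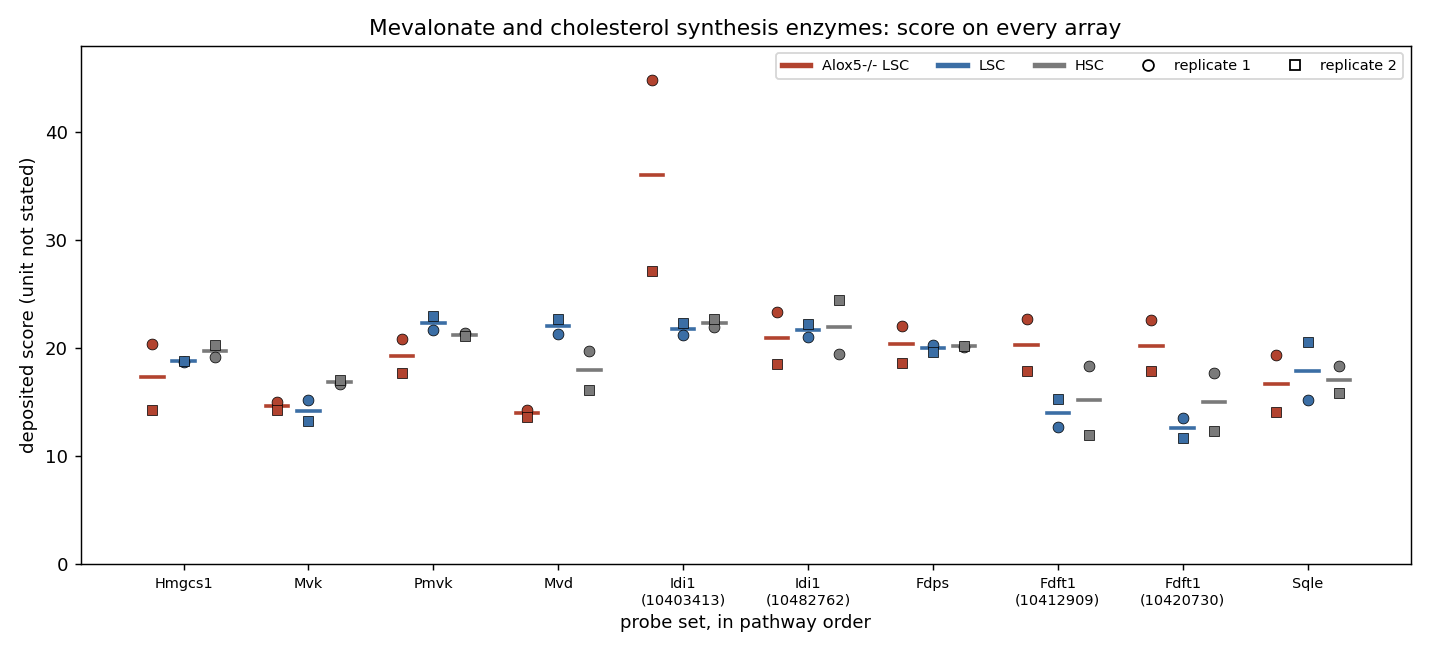
Deposited score (vertical axis, unit not stated) of the 10 probe sets in pathway order (horizontal axis). Circles are replicate 1, squares replicate 2, and bars group means for Alox5-/- LSC, LSC and HSC from left to right. Mvd has its Alox5-/- LSC arrays at 14.3 and 13.6, below all others, and Idi1 probe set 10403413 has them at 44.8 and 27.2, above all others.

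Hmgcs1, which makes HMG-CoA, scored 20.4 and 14.3 in Alox5-/- LSC, 18.8 and 18.8 in LSC, and 19.2 and 20.3 in HSC. The Alox5-/- LSC arrays spanned the whole range of the other arrays, whereas both LSC arrays lay just below both HSC arrays. Mvk, mevalonate kinase, scored 15.0 and 14.3 in Alox5-/- LSC, 15.2 and 13.3 in LSC, and 16.7 and 17.1 in HSC. All 4 BCR-ABL arrays scored below both HSC arrays. Pmvk, phosphomevalonate kinase, scored 20.9 and 17.7 in Alox5-/- LSC, 21.7 and 23.0 in LSC, and 21.4 and 21.2 in HSC. Its order of group means, LSC above HSC above Alox5-/- LSC, was that of Mvd, with Alox5-/- LSC minus LSC at -3.07 ± 1.46 (SE) and no overlap between neighbouring groups. The same difference was -1.47 ± 2.09 for Hmgcs1 and 0.40 ± 1.20 for Mvk, and in both genes these 2 groups overlapped. Leaving out 1 array took it from -4.53 to 1.60 for Hmgcs1 and from -0.547 to 1.35 for Mvk, both with a change of sign, and from -4.67 to -1.47 for Pmvk.

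Fdps, farnesyl diphosphate synthase, scored 22.1 and 18.7 in Alox5-/- LSC, 20.3 and 19.7 in LSC, and 20.2 and 20.2 in HSC. Its means of 20.4 ± 2.39 in Alox5-/- LSC, 20.02 ± 0.45 in LSC and 20.2 ± 0.03 in HSC (SD, n = 2 each) were the closest of any member probe set, and the groups overlapped. Sqle, squalene epoxidase, scored 19.4 and 14.1 in Alox5-/- LSC, 15.2 and 20.5 in LSC, and 18.3 and 15.9 in HSC. Its replicates lay further apart than its means of 16.7 in Alox5-/- LSC, 17.9 in LSC and 17.1 in HSC.

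Fdft1, squalene synthase, which commits farnesyl diphosphate to sterols, was higher in Alox5-/- LSC on both of its probe sets. Probe set 10420730 scored 22.6 and 17.9 in Alox5-/- LSC, 13.6 and 11.7 in LSC, and 17.7 and 12.3 in HSC. Both Alox5-/- LSC arrays lay above all others, though replicate 2 exceeded HSC replicate 1 only narrowly. Probe set 10412909 scored 22.7 and 17.9 in Alox5-/- LSC, 12.7 and 15.3 in LSC, and 18.4 and 12.0 in HSC. There the Alox5-/- LSC arrays lay above both LSC arrays but overlapped the HSC arrays. Alox5-/- LSC minus LSC was 7.62 ± 2.37 on the first and 6.30 ± 2.65 on the second (SE), and 0.939% and 1.80% of all probe sets differed by more. The 2 probe sets share all 8 of their accessions and differed by 3.60 at most on any array, so they are not separate evidence.

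In Alox5-/- LSC minus LSC as a whole, 5 of the 10 probe sets had groups that did not overlap, against 31.6% of all probe sets, and the choice of genes used this comparison. Idi1 (10403413) and both Fdft1 probe sets were higher (10.9% of all probe sets were), and Pmvk and Mvd lower (20.7% of all). The median difference of the members was -0.19 and that of all probe sets -0.28.

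**Figure D3:**
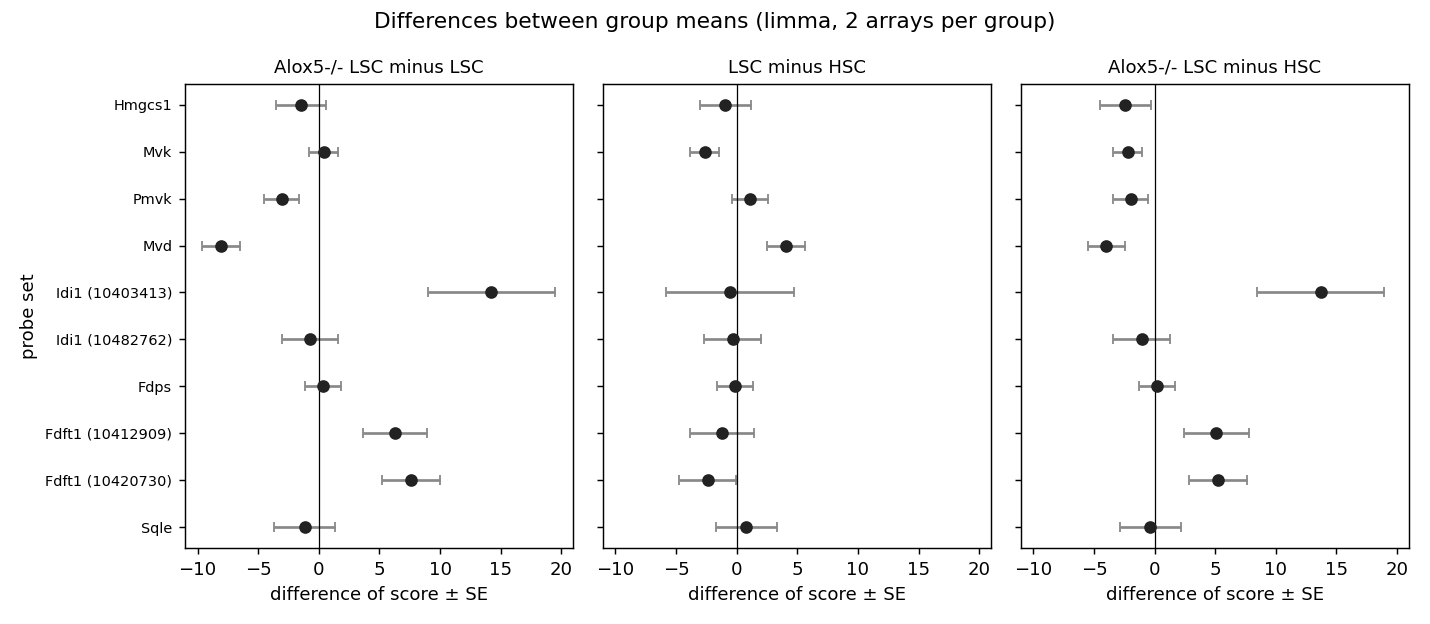
Difference of mean score with its standard error from limma (horizontal axes) for the 10 probe sets (vertical axis), in 3 comparisons of 2 arrays with 2. In Alox5-/- LSC minus LSC, Mvd lies at -8.07 and Idi1 probe set 10403413 at 14.2, and in LSC minus HSC all members lie between -2.63 and 4.07.

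LSC against HSC addressed what BCR-ABL alters in wild-type cells, and for the 6 genes other than Mvd and Idi1 it was tested. None of their 7 probe sets passed, with unadjusted limma p between 0.0717 (Mvk) and 0.921 (Fdps) and adjusted p of at least 0.993 over all 34499 probe sets. At an unadjusted p under 0.05 limma called 4.94% of all probe sets and 0 of these 7. Mvk differed by -2.63 ± 1.20 (SE), lower on both LSC arrays than on both HSC arrays. Pmvk differed by 1.10 ± 1.46, Hmgcs1 by -0.94 ± 2.09 and Fdps by -0.15 ± 1.45. Fdft1 differed by -2.39 ± 2.37 on probe set 10420730 and by -1.19 ± 2.65 on 10412909, and Sqle by 0.79 ± 2.51. Groups did not overlap for Hmgcs1, Mvk and Pmvk, 3 of 7 probe sets, against 34.2% of all. Pmvk was higher in LSC, as were 11.1% of all probe sets, and Hmgcs1 and Mvk lower, as were 23% of all.

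Several of these signs hung on 1 array. Fdps was 0.165 without LSC replicate 2, and also positive after either scaling of the arrays (0.325 centred, 0.475 quantile normalized). Sqle was -1.88 without LSC replicate 2 and -0.45 without HSC replicate 2. Fdft1 was 0.281 on 10420730 and 2.002 on 10412909 without HSC replicate 1, and 0.103 on 10412909 without LSC replicate 1. In the fits without 1 array, Mvk (-3.58 to -1.68) and Hmgcs1 (-1.51 to -0.372) stayed negative. Pmvk stayed positive there (0.469 to 1.74).

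Alox5-/- LSC against HSC shares its HSC arrays with the preceding comparison and is not independent of it. Again none of the 7 probe sets passed (smallest adjusted limma p 0.779), and 0 of them had an unadjusted p under 0.05, against 6.44% of all probe sets. That count was 1 without Alox5-/- LSC replicate 1 (Hmgcs1), against 7.16% of all probe sets in the same fit. It was 1 without Alox5-/- LSC replicate 2 (Fdft1 10420730), against 6.51%, and 2 without HSC replicate 1 (both Fdft1 probe sets), against 9.23%. Fdft1 differed by 5.22 ± 2.37 (SE; unadjusted limma p of 0.0703) on 10420730 and by 5.11 ± 2.65 (unadjusted p of 0.103) on 10412909. After centring each array on its median, probe set 10420730 differed by 6.11 with an unadjusted limma p of 0.0399. Mvk differed by -2.23 ± 1.20, Pmvk by -1.97 ± 1.46, Hmgcs1 by -2.41 ± 2.09, Fdps by 0.19 and Sqle by -0.36. Pmvk, Hmgcs1, Fdps and Sqle differed by less than the gap between their Alox5-/- LSC replicates. Groups did not overlap for Mvk, Pmvk and Fdft1 (10420730), 3 of 7, against 35.7% of all. Fdft1 was higher in Alox5-/- LSC, as were 8.13% of all probe sets, and Mvk and Pmvk lower, as were 27.6% of all. Hmgcs1 was 0.663 without Alox5-/- LSC replicate 2. Fdps was -1.498 without Alox5-/- LSC replicate 1. Sqle was 2.27 without Alox5-/- LSC replicate 2 and 0.869 without HSC replicate 1, and positive after centring (0.520) or quantile normalization (0.293).

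The gap between the Alox5-/- LSC replicates was wider than the median over all probe sets for 8 of the 10 members. It was narrower for Mvd (0.654) and Mvk (0.706). All 10 probe sets scored higher on replicate 1 than on replicate 2, as did 68.9% of all probe sets. After centring on the array median, 8 of 10 did, against 46.4% of all. The median gap was 4.74 for the members and 1.69 for all probe sets in Alox5-/- LSC, 1.32 and 1.42 in LSC, and 1.80 and 1.68 in HSC. Among the 18303 probe sets whose mean score lay within the range of the members, 15.3 to 26.7, the median gap in Alox5-/- LSC was 1.78. Alox5-/- LSC replicate 1 was the highest of the 6 arrays for 5 of the 10 probe sets, against 20.8% of all (5 of 10 and 18.6% after centring). Without Mvd and Idi1 it was the highest for 4 of 7, among them both Fdft1 probe sets. Replicate 2 was the lowest of the 6 arrays for 6 of the 10, against 11580 of all 34499 probe sets. After centring it was the lowest for 2 of the 10, against 4333 of all. These counts were chosen after the values were seen and were not tested.

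Enzymes that follow squalene were read in the same way. Of 11 sterol branch genes 10 were measured, by 10 probe sets, with a median gap of 4.66 between the Alox5-/- LSC replicates. Replicate 1 scored higher on 8 of them, against 68.9% of all probe sets (8 after centring, against 46.4%). It was the highest of the 6 arrays for 6, against 20.8% of all (5 after centring, against 18.6%). Msmo1, a sterol C-4 methyl oxidase, named after its values were seen, scored 25.4 and 14.4 in Alox5-/- LSC, 16.1 and 18.5 in LSC, and 17.9 and 20.5 in HSC. Sc5d, a sterol desaturase, likewise named, scored 20.2 and 11.7 in Alox5-/- LSC, 15.2 and 14.2 in LSC, and 16.6 and 14.1 in HSC. In both genes the 2 Alox5-/- LSC arrays lay on either side of all the LSC and HSC arrays. The median gap in that group was 4.40 for users of isoprenoids and 2.61 for regulators and cholesterol transport genes.

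**Figure D4:**
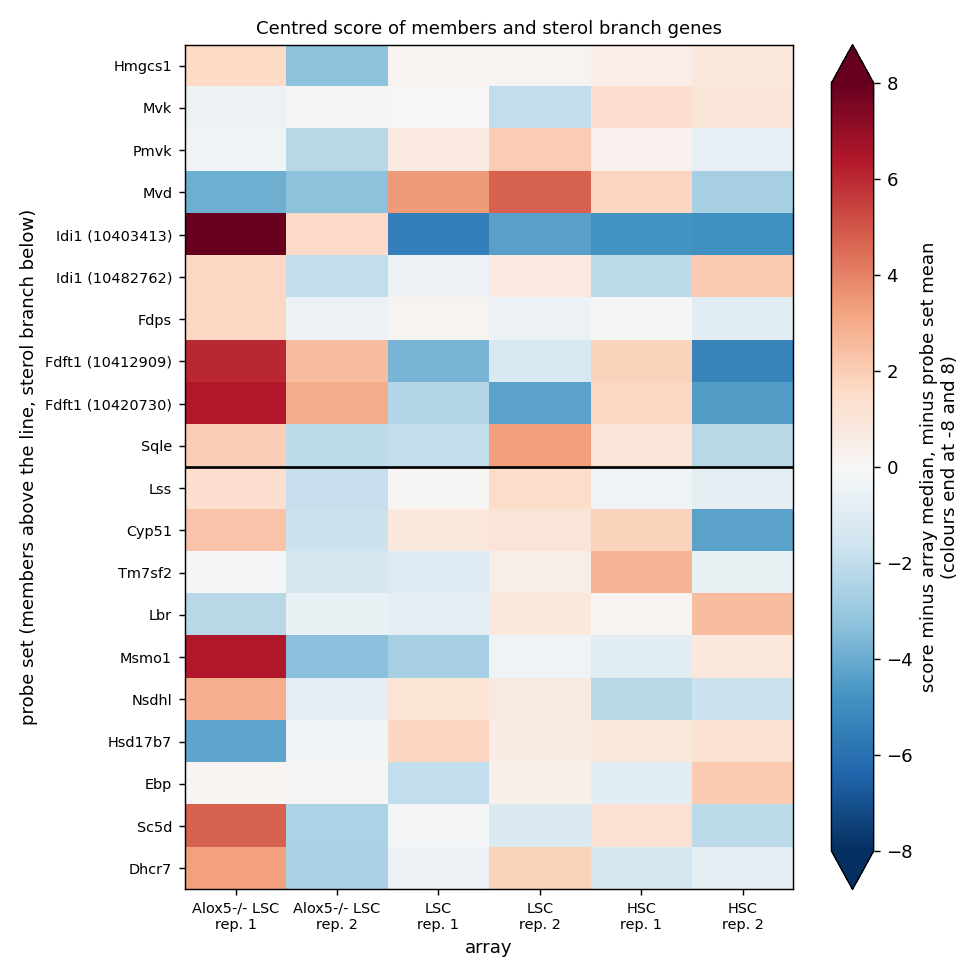
Score minus array median, minus the mean of the probe set, in score units (colour, ending at -8 and 8), for the 10 mevalonate probe sets above the line and 10 sterol branch probe sets below it (vertical axis) on the 6 arrays (horizontal axis). After centring, Alox5-/- LSC replicate 1 is the highest array for 5 of the 10 probe sets above the line and 5 of the 10 below it. The share over all probe sets is 18.6%.

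Further genes of the pathway came from lists of 42 genes, of which 34 were measured, by 36 probe sets. In LSC minus HSC 0 of the 36 had an unadjusted limma p under 0.05, against 4.94% of all probe sets, with a median difference of -0.54 against -0.43 for all. The count was 2 without Alox5-/- LSC replicate 1 or replicate 2 (5.31% and 5.28% of all in those fits) and 4 without HSC replicate 1 (7.62%). In Alox5-/- LSC minus HSC there were 4, each lower in Alox5-/- LSC, against 5.32% of all probe sets in that direction. The medians were -1.51 and -0.73. In Alox5-/- LSC minus LSC there were 2, both lower, against 2.73% of all, with medians of -0.71 and -0.28. None passed after adjustment. The count of 4 in either direction, against 6.44% of all, was 1 after centring (5.72% of all in that fit), after quantile normalization (5.75%) or without HSC replicate 2 (5.08%). It was 6 without Alox5-/- LSC replicate 2 (6.51%), 6 of 34 with 1 probe set per gene (6.98%) and 7 without HSC replicate 1 (9.23%).

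Zmpste24, the protease that trims farnesylated prelamin A, was in both of these counts through probe set 10516007. It scored 11.3 and 11.7 in Alox5-/- LSC, 18.4 and 16.9 in LSC, and 16.9 and 16.7 in HSC. Both Alox5-/- LSC arrays lay well below the others, and the difference was -6.12 ± 1.14 from LSC (unadjusted limma p of 0.00175, adjusted p = 1.00) and -5.30 ± 1.14 from HSC (unadjusted p of 0.00357, adjusted p = 0.769). Its other probe set, 10516020, differed by 0.02 and 0.19. Hsd17b7, a 3-ketosterol reductase, scored 8.40 and 11.2 in Alox5-/- LSC, 14.1 and 13.0 in LSC, and 13.4 and 14.5 in HSC. It differed by -3.78 ± 1.39 from LSC (unadjusted limma p of 0.0353, adjusted p = 1.00) and by -4.18 ± 1.39 from HSC (unadjusted p of 0.0243, adjusted p = 0.769). The 2 others, against HSC alone, were Ggps1, which makes geranylgeranyl diphosphate, at -4.54 ± 1.79 (unadjusted limma p of 0.0450, adjusted p = 0.769) and Lbr, a sterol reductase of the nuclear envelope, at -3.63 ± 1.46 (unadjusted p of 0.0478, adjusted p = 0.769).

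Regulators of the pathway did not pass in any comparison. Srebf2, which encodes SREBP-2, scored 17.2 and 14.3 in Alox5-/- LSC, 15.4 and 14.96 in LSC, and 13.6 and 15.5 in HSC. Its groups overlapped throughout, with differences of 0.56 (Alox5-/- LSC minus LSC), 0.60 (LSC minus HSC) and 1.16 (Alox5-/- LSC minus HSC; SE 1.47 each). Insig1, which retains the SREBP escort in the endoplasmic reticulum, scored 17.2 and 17.2 in Alox5-/- LSC, 18.3 and 20.2 in LSC, and 19.2 and 23.6 in HSC. It was lowest on both Alox5-/- LSC arrays, at -4.20 ± 1.74 from HSC (unadjusted limma p of 0.0525, adjusted p = 0.770).

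The probe sets most like a member were those with the smallest mean absolute difference over the 6 arrays, after each had its own mean subtracted, among 20300 candidates. For Mvd these were Zscan21 at 0.902, Ndrg2 at 0.977 and Samd9l at 1.00 score units. For Idi1 probe set 10403413 they were Prkcz at 2.16, Arhgap42 at 2.60 and Zdhhc14 at 2.96. For probe set 10482762 they were Depdc5 at 0.252, Dennd1a at 0.294 and Ibtk at 0.296. Prkcz, like Idi1 probe set 10403413, was highest on Alox5-/- LSC replicate 1. It scored 31.7 there, against 21.6 on replicate 2 and 15.3 to 17.9 elsewhere.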

How the data were processed

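RNA of 6 sorted bone marrow samples, 100 to 300 ng each, was amplified and read on Affymetrix expression arrays, per the labels' protocols. Each probe set has 1 deposited score on each array, and the submitters' processing notes name Affymetrix Expression Console 1.1 and RMA. The authors' scores ran from 0 to 62.1, and 33.5% to 53.7% of an array's probe sets lay above 16, the limit for log2 of a 16-bit scan, so they are not log2 expression. The scale, its direction and the genome build are not given in the sources used here. Leaving out 1058 probe sets with no score on any array, 34499 of 35557 were analysed. Symbols came from the platform annotation (21789 probe sets with 1 symbol).

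Scores as deposited were fitted with limma 3.58.1 in R 4.3.3, with a mean per group, a spread shared over all 6 arrays (3 residual degrees of freedom) and a prior variance that follows the mean. Tests were two-sided and adjusted by Benjamini-Hochberg over 34499 probe sets at 0.05. A run on simulated data checked the code only. It does not show that differences of the size seen here would pass. Precision is limited by the 2 arrays per group. Named genes were all members, the genes Srebf2, Insig1, Zmpste24 and Ggps1, pathway list genes with an unadjusted p under 0.05, and the 3 most like probe sets for Mvd and Idi1. Msmo1 and Sc5d fall outside this rule and were named after their values were seen. Members, lists and tests were chosen with earlier results of these data known. Alternatives covered scaling, scale, filter, 1 probe set per gene, prior, replicate block and leaving out each array. Some listed genes were not analysed here.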

Additional observations from a re-analysis of the deposited data

How the results depend on the processing

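No probe set passed an adjusted p of 0.05 in any comparison under any of the 13 alternatives. With 1 probe set for each of 19934 genes, fewer features were tested, and the counts at an unadjusted limma p under 0.05 were 678 in Alox5-/- LSC minus LSC, 939 in LSC minus HSC and 1392 in Alox5-/- LSC minus HSC, against 1365, 1704 and 2223 over all probe sets. In Alox5-/- LSC minus HSC, 1 of the 7 tested member probe sets (Fdft1 10420730) had such a p after centring, after quantile normalization and with the replicate block, against 0 as deposited. The 36 pathway probe sets gave 1 after centring and 1 after quantile normalization, against 4. Fdps in LSC minus HSC turned to 0.325 and 0.475 and Sqle in Alox5-/- LSC minus HSC to 0.520 and 0.293 under the same scalings; the cause was not tested.

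Leaving out 1 array gave 1211 to 2144 probe sets at that p in Alox5-/- LSC minus LSC (highest without Alox5-/- LSC replicate 2), 1345 to 2630 in LSC minus HSC (highest without HSC replicate 1) and 1754 to 3184 in Alox5-/- LSC minus HSC. A lone array was assumed to vary like the other groups. Tested member probe sets numbered 0 to 2 in Alox5-/- LSC minus HSC, and pathway probe sets 0 to 4 in LSC minus HSC and 1 to 7 in Alox5-/- LSC minus HSC. In LSC minus HSC, Fdps ran from -0.466 to 0.165, Fdft1 from -4.39 to 2.002 (10412909) and from -5.06 to 0.281 (10420730), and Sqle from -1.88 to 3.45. In Alox5-/- LSC minus HSC, Hmgcs1 ran from -5.47 to 0.663, Fdps from -1.498 to 1.89 and Sqle from -3.00 to 2.27. Without a test, Mvd in Alox5-/- LSC minus LSC ran from -8.76 to -7.38 and Idi1 (10403413) from 5.42 to 23.1. In that comparison Idi1 (10482762, -3.16 to 1.69), Fdps (-1.35 to 2.04) and Sqle (-3.82 to 1.52) changed sign. So did Hmgcs1 (-4.53 to 1.60) and Mvk (-0.547 to 1.35).

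Replicate numbers showed no pairing of the arrays over all probe sets. Deviations of same-numbered arrays from their group means correlated at -0.0405, -0.0476 and -0.0250 across probe sets in the 3 pairs of groups. Pairing for part of the genes cannot be told from these correlations. With the replicate number as a block, 1233 probe sets in Alox5-/- LSC minus LSC, 1517 in LSC minus HSC and 1923 in Alox5-/- LSC minus HSC had an unadjusted p under 0.05, and 6 of the 36 pathway probe sets did in the last (5.57% of all).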
